A study of Nymphaea colorata and Nymphaea micrantha with 16 samples.

Results

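The genes described here are 150 members of a 31475-gene table whose RNA was higher in fully unfolded leaves of *N. colorata* than at any earlier stage of that species, while *N. micrantha* leaves of the same stage showed no new maximum. They were chosen by a rule on the measured values themselves. On the log2(FPKM + 1) scale, where FPKM is reads scaled for gene length and library size, 7179 genes met 3 conditions: stage 1 means of the species within 1 of each other, an X4 mean not above the highest of the X1, X2 and X3 means, and at least 1 FPKM in at least 2 X libraries. Each was scored by the lower of the 2 L4 libraries minus the highest of the 6 L1, L2 and L3 libraries. The score was above 0 for 700 genes, and the 150 highest were taken.

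*N. micrantha*, the viviparous species (X), forms plantlets on its leaves, and *N. colorata* (L) does not. Whole leaves with the leaf nose, the site of the plantlet, were sampled from garden-grown plants at 4 stages. Stage 1 was a submerged, rolled leaf of 1 to 2 cm, and stage 2 the same at 4 to 6 cm. Stage 3 was a partly unrolled leaf whose tip touched the water surface. Stage 4 was a fully unfolded leaf, with a viviparous mark in X only. In X the paper could see the viviparous structure from stage 2, and clearly at stages 3 and 4. The groups X1 to X4 and L1 to L4 hold 2 libraries each, 16 in all, labelled wild type and made from leaves pooled over several plants. The paper describes 3 biological repeats, and mixed leaves of the plants selected for a species into each sample. Pools of a group may thus share plants, and their spread may not hold the variation between plants. The p-values below rest on the spread between these pools. In the main fit all 8 groups shared 1 estimate of it for each gene, so it was not that of the compared groups alone.

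A floating water lily leaf is made under water and begins gas exchange and full light capture only when its blade spreads on the surface. Thylakoids are the chloroplast membranes that carry the photosystems. Their lumen proteins, repair proteases and plastoglobules, which are lipid bodies attached to them, keep the electron transport chain working in light. Stomata, the wax layer of the cuticle and the transport of sugar belong to the same change of leaf life.

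Gene counts summed to 24815135 to 31440253 reads per X library and to 37118842 to 51396582 per L library. All 150 members passed the filter of the tests below, which 18160 genes passed. A member had a median of 425.5 reads in an X library and 1998 in an L4 library, and 4 members had 3 reads or fewer in some X library. Replicates differed most at X2, where the SD of their log2 difference over genes was 0.631, and least at X3, where it was 0.244. FPKM was not of equal centre in all groups, as the median gene differed by −0.18 between X2 and L2, by −0.30 between X3 and L3 and by 0.19 between X4 and X3. Scaling the libraries by median ratios moved these medians to −0.04, −0.09 and 0.04.

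Over the members, the median of the group mean FPKM was 8.97 in X1, 7.86 in X2, 11.1 in X3 and 10.98 in X4. In L the same medians were 7.46, 9.19, 11.4 and 27.5 from stage 1 to stage 4. The L4 median was thus set apart from those of all 7 other groups. The rule selected on the distance of L4 from L1 to L3, and set no direct condition on L4 against X. Within a bulk leaf sample, fewer cells of a type and less RNA per cell cannot be told apart. By the limma fit over all tested genes, 91 members were at least 2-fold higher in L4 than in L3 with an adjusted p under 0.05, beside 6.67% of all genes higher and 9.49% lower. In X4 against L4, 101 members were lower by the same criteria, beside 19% of all genes lower and 12.3% higher. The first count follows from the selection, and the second does so in part, through the conditions on X1 and X4. Both are given as a description.

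**Figure D1:**
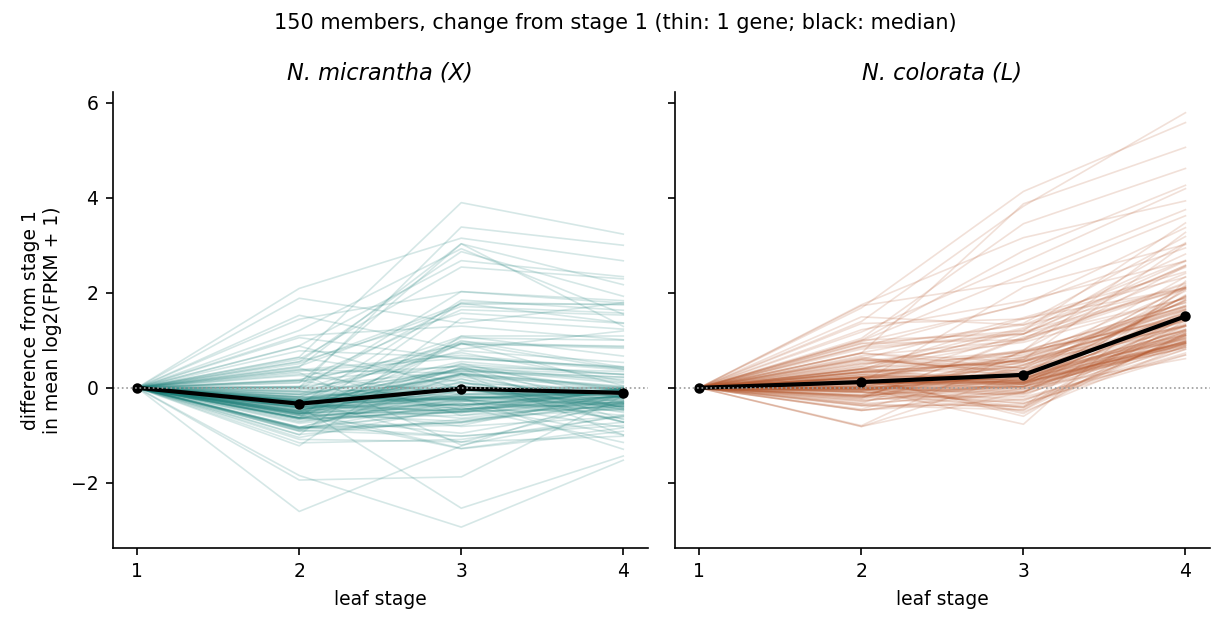
Change of each of the 150 members from stage 1, as the difference in mean log2(FPKM + 1), against leaf stage, for X on the left and L on the right (n = 2 libraries a group; black, median of members). The L lines climb at stage 4, while the X lines spread at stage 3 around a median near 0, with some staying well above 0 at stage 4.

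The name given to such genes, rising in *N. colorata* only, was set beside their X levels as a description, since the rule used X1 and X4. X4 differed from X1 by less than 0.5 on the log2 scale for 99 members. In 24 members X4 was above X1 by 1 or more, and in 5 below it by as much, so X levels were not flat in all of them. The limma fit called 23 higher and 5 lower in X4 against X1, beside 12.3% and 9.65% of all genes, and nothing is read from these counts. In 8 members the highest X stage reached or passed the L4 mean. In X4 against X3, also a contrast of the rule, 4 members were called higher and 5 lower (2 and 10 after median-ratio scaling), beside 8.72% and 5.23% of all genes.

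The stage at which an X leaf held the most RNA of a member was X1 for 72, X2 for 13 and X3 for 65. Stage 3 was the peak of 43.3% of the members, against 18.9% of the other genes that met the 3 conditions, and stage 2 of 8.67%, against 30.6%. The X1 libraries were uneven for these genes. X1 replicate 2 was above X1 replicate 1 for 112 members, against 37.9% of all tested genes. Without X1 replicate 2, 122 members still met the 3 conditions, and without X1 replicate 1, 116 did. Without X4 replicate 2, 119 did.

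The highest score belonged to NC2G0006120, a gene with no annotation in the sources used here. Its FPKM was 0.187 and 0.0357 in X1, 0.743 and 0.733 in X2, 15.5 and 15.6 in X3, and 5.08 and 17.0 in X4. In L it was 0.132 and 0.129, then 0.357 and 0.239, then 0.584 and 0.828, and 8.12 and 8.38 at stage 4. The gene was therefore under 1 FPKM in both species until stage 2, had its highest mean a stage earlier in X than in L, and its X4 libraries lay on either side of the L4 ones. The rule read this as a gene rising in L because the uneven X4 pair averaged below X3 on the log2 scale.

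NC4G0152430, also without annotation, was the plainer case. Its FPKM in X4 was 5.84 and 4.08, against 31.5 and 50.4 in L4, and every other library of either species was between 2.94 and 10.8. NC3G0207990, annotated with cell redox homeostasis, had 12.0 and 8.22 FPKM in X4, against 88.2 and 83.2 in L4. In L1 to L3 it ranged from 11.3 to 21.1, and the ratio of mean FPKM in L4 over L3 was 5.92. NC11G0116820, annotated with unfolded protein binding and the response to reactive oxygen species, had 1.01 and 0.480 FPKM in X4, against 18.3 and 19.9 in L4. Its ratio of mean FPKM in X4 over L4, 0.0391, was the lowest of the 150 members.

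The unannotated NC1G0101760 and NC3G0208040 completed the 10 highest scores with 3 plastid genes and NC4G0238410, which are described below. Scores ran from 2.32 to 0.54 with a median of 0.75, and 40 members had at least 1. There was no gap in scores at the threshold. The lowest scores inside were 0.552 for NC10G0031860, 0.542 for NC13G0061310 and 0.540 for NC4G0047350, and the highest outside were 0.539 for NC3G0225720, 0.538 for NC1G0182590 and 0.534 for NC3G0227100.

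By level in L4, the leading member was NC3G0229110, a photosystem II gene, with 1372 and 1068 FPKM. NC3G0220880, without annotation, had 453 and 442 FPKM in X4, against 618 and 689 in L4. NC9G0274800, also unannotated, had 85.1 and 120 in X4, against 322 and 279 in L4. NC2G0008920, annotated with iron-sulfur cluster binding and cellular iron homeostasis, had 73.0 and 65.1 in X4, against 228 and 274 in L4. An aldehyde dehydrogenase with the term response to desiccation, NC1G0157790, had 114 and 87.5 in X4, against 206 and 235 in L4. In the last 4 genes X4 held between 0.275 and 0.685 of the L4 mean FPKM.

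Readable functional terms covered 59 members, or 39.3%, against 21.1% of all tested genes. The terms come from tables of genes that the study had called different between the species, so their cover was not independent of these libraries. Of the annotated members, 19 (32.2%) carried a plastid, photosynthesis or pigment term, against 132 of 1096 annotated other genes that met the 3 conditions (12%) and 353 of 3829 annotated tested genes (9.22%). That list of terms was drawn up after the members had been seen, and the shares are a description.

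Thylakoid proteins made up much of the plastid set. NC11G0120540, a peptidyl-prolyl isomerase of the thylakoid lumen, an enzyme class that helps proteins fold, had 21.6 and 15.6 FPKM in X4, against 93.3 and 90.7 in L4. L1 to L3 stayed between 19.3 and 28.8, and X peaked at X3 with 39.4 and 40.2. NC12G0189620, an ATP-dependent metalloendopeptidase with the term photosystem II repair, had 50.6 and 31.0 in X4, against 109 and 209 in L4. For this protease the highest library outside L4 was X1 replicate 2, at 76.7. NC12G0096470, a second lumen gene, had 2.45 and 2.02 in X4, against 8.62 and 7.66 in L4.

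The photosystem II gene NC3G0229110 was at its lowest in X at the stage where it was at its highest in L. X held 627 and 827 FPKM at stage 1, 515 and 555 at stage 2, 872 and 894 at stage 3, and 418 and 312 at stage 4. L held 701 and 288, 687 and 658, 704 and 471, and then 1372 and 1068. At each of the first 3 stages the species were within 2-fold of each other by their means, and the stage 4 libraries were far apart, with a ratio of mean FPKM in X4 over L4 of 0.299.

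**Figure D2:**
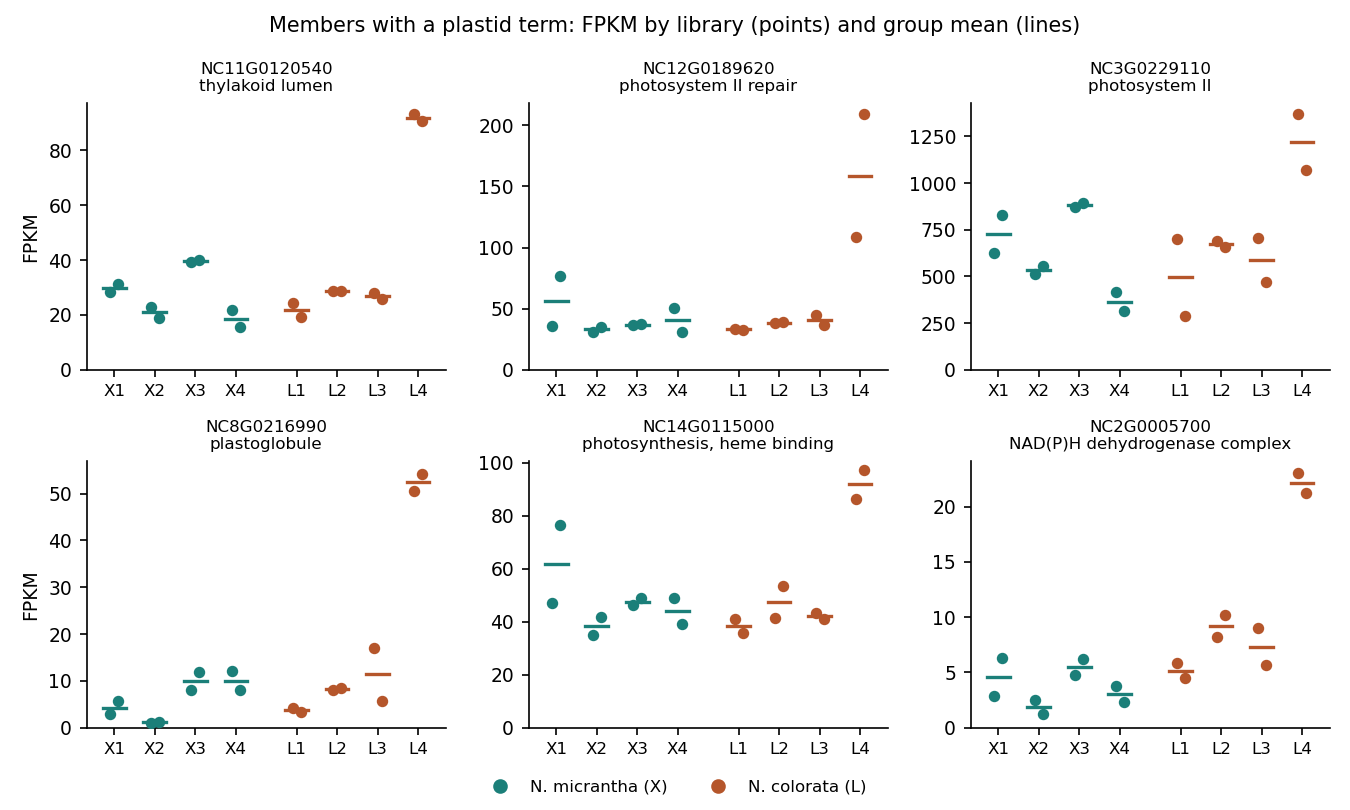
FPKM of 6 members with a plastid term in every library, by group (X on the left of each panel, L on the right; lines, means of 2 libraries; each panel has its own axis from 0). The L4 libraries stand above all others in each panel, which the rule required over L1 to L3 only. NC12G0189620 shows the widest L4 pair as a ratio, 109 and 209.

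The NAD(P)H dehydrogenase complex of the thylakoid, which returns electrons to plastoquinone around photosystem I, was represented by NC2G0005700 and NC10G0031860. FPKM of NC2G0005700 was 3.76 and 2.30 in X4, against 23.0 and 21.2 in L4. That of NC10G0031860 was 4.85 and 3.10 in X4, against 21.0 and 19.6 in L4. Both also differed before stage 4. NC2G0005700 was lower in X2 than in L2, with a log2 fold change of −1.84 (limma, adjusted p = 0.000712), and rose at X3 over X2 by 1.19 (adjusted p = 0.0231). NC10G0031860 did the same, with log2 fold changes of −1.60 for X2 against L2 and 1.45 for X3 against X2 (limma, adjusted p = 0.00135 and 0.00679).

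Plastoglobule terms marked NC8G0216990, NC14G0010680 and NC4G0237610. NC8G0216990 had 12.1 and 8.02 FPKM in X4, against 50.6 and 54.2 in L4. At stage 2 it was already lower in X, with 1.12 and 1.24 in X2 and 8.002 and 8.41 in L2, a log2 fold change of −2.08 (SE 0.391, limma, adjusted p = 0.00101). It rose at X3, to 8.13 and 11.9 (log2 fold change 2.31 over X2, limma, adjusted p = 0.00163). NC14G0010680 fell at X2 against X1 by 1.05 on the log2 scale (limma, adjusted p = 0.0305). NC4G0237610 lay between 13.3 and 24.1 FPKM in all 8 X libraries.

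Pigment and light genes were a smaller group. NC14G0115000, annotated with photosynthesis, chloroplast to nucleus signalling and porphyrin and chlorophyll metabolism, had 48.9 and 39.3 FPKM in X4, against 86.4 and 97.4 in L4. NC6G0013210, with 9-cis-epoxycarotenoid dioxygenase activity and carotene catabolism, had 69.6 and 58.2 in X4, against 148 and 168 in L4. NC1G0107640, with chlorophyll catabolism, had 1.13 and 0.687 in X4, against 4.36 and 6.58 in L4. A gene with UV-B response and photoreceptor terms, NC8G0213840, had 14.6 and 13.0 in X4, against 35.9 and 39.7 in L4.

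NC9G0147780, of the chloroplast membrane and annotated with circadian rhythm, leaf senescence, iron homeostasis and high light, was one of the 4 members called higher in X2 than in L2. FPKM was 10.99 and 16.2 in X2, against 6.47 and 5.22 in L2, and 14.4 and 13.3 in X3, against 6.34 and 4.53 in L3. The log2 fold changes were 1.07 at stage 2 and 1.22 at stage 3 (limma, adjusted p = 0.00478 and 0.00189). At stage 4 the order was turned, with 15.1 and 9.31 in X4 and 19.9 and 29.0 in L4.

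NC9G0113020, a phosphatase with the term photorespiration, the salvage of the oxygenation product of Rubisco, rose in X3 over X2 by 1.55 on the log2 scale (limma, adjusted p = 0.00302). The thylakoid transporter NC1G0306220 was lower in X at stages 2 and 3, with log2 fold changes of −1.18 and −1.23 (limma, adjusted p = 0.00103 and 0.000689). NC1G0106350, with photosystem I electron transport, was lower in X2 than in L2, with a log2 fold change of −1.03 (limma, adjusted p = 0.0076). The remaining plastid members were NC4G0047830 (chloroplast organization and transcription termination), NC4G0018690 (a chloroplast kinase of carbon metabolism) and NC12G0185360 (chloroplast, wounding and UV-B).

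Across the 19 plastid members the log2 change of X4 against X1 had a median of −0.28, from −0.99 to 1.09, and 15 were below 0. L3 against L2, which precedes the selected rise, had a median of −0.07 and a range of −0.32 to 0.59. X3 against X2 had a median of 0.53 and a range of −0.31 to 2.31. Over all 150 members these medians were −0.11, 0.17 and 0.32, and 50 of the 150 were above 0 in X4 against X1. Of the 19, 0 were called higher in L3, beside 10% of all members and 7.18% of all tested genes. In X3 the number was 4, beside 20% and 4.95%. That difference between the species was not called for any of the 19.

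Comparisons that the selection used least are those among stages 1 to 3 and between species at stages 2 and 3. They are not free of the rule, since it caps L1 to L3, requires an earlier X stage at or above X4, and holds the stage 1 means together. The largest departure from the background was in X3 against X2. There 30 members (20%) rose and 3 fell, while 4.95% of all tested genes rose and 6.51% fell, and 3.3% of the other genes that met the 3 conditions rose. With only the 4 libraries compared in the fit, 11 members rose, and without X2 replicate 2, 6 fell. In L3 against L2, 15 members (10%) rose, against 7.18% of all genes. None of them fell, where 6.84% of all genes did; 4 members fell at an unadjusted p under 0.05, and 0 by voom on the recovered reads.

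**Figure D3:**
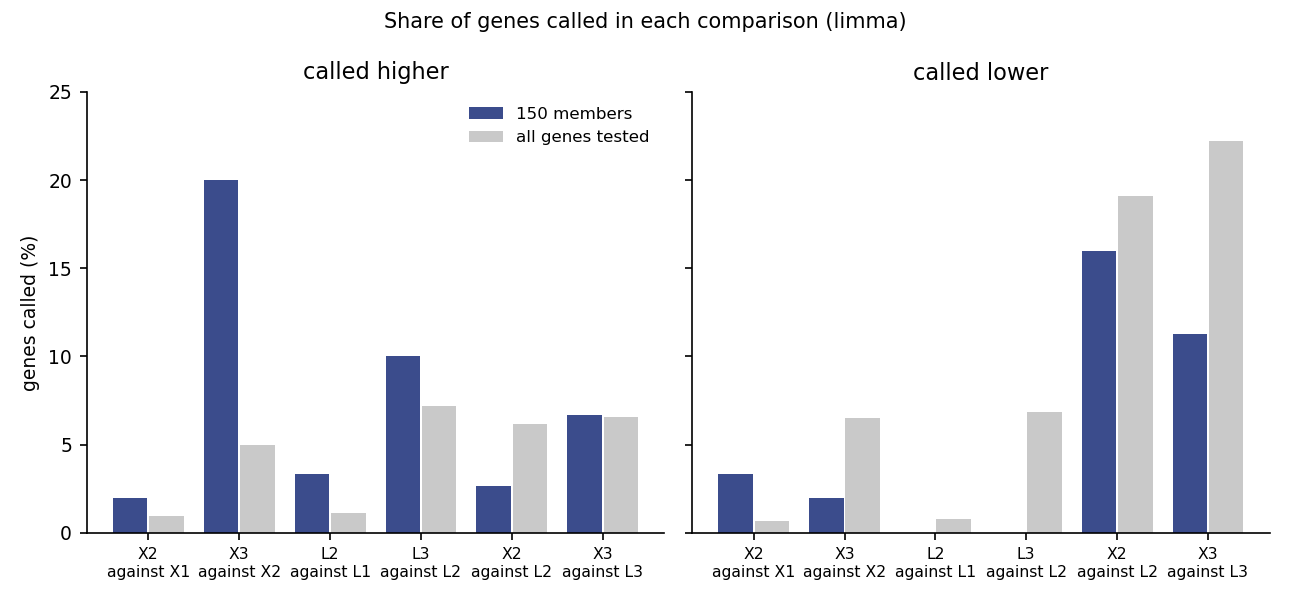
Percent of the 150 members (blue) and of all 18160 tested genes (grey) called by limma (adjusted p under 0.05 and at least 2-fold) in each comparison, higher on the left and lower on the right. Members exceed the background most in X3 against X2 higher, 20% against 4.95%, and stay under it in both comparisons of X with L for lower calls. In those 2 they are above the other genes that met the 3 conditions (not drawn), at 16% against 5.12% and 11.3% against 8.04%.

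Of the 30 members that rose at X3, 10 also rose in L3 against L2 and 20 were among those called higher in X4 against X1. Their carbohydrate transport gene, NC2G0035950, had 2.63 and 2.14 FPKM in X2 and 33.7 and 34.8 in X3, then 28.5 and 23.7 in X4. In L it had 6.02 and 8.66 at stage 2, 27.8 and 17.1 at stage 3 and 68.1 and 63.4 at stage 4. The log2 fold change was 3.38 (SE 0.378) for X3 against X2 and 1.47 for L3 against L2 (limma, adjusted p = 0.000126 and 0.0123). The gene rose in both species at the stage when the leaf tip reached the surface, and stage 4 was above stage 3 in L and below it in X.

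NC4G0238410, without annotation, had like levels in the species at stages 2 and 3 and unlike ones at stage 4. X had 7.21 and 5.13 FPKM at stage 2 and 41.2 and 42.4 at stage 3, while L had 8.08 and 6.16 and then 38.7 and 46.4. The log2 fold changes from stage 2 to stage 3 were 2.59 in X and 2.43 in L (limma, adjusted p = 2.97e-05 and 3.08e-05). At stage 4 X had 21.9 and 23.2, and L had 183 and 156.

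NC1G0177610 carries terms for very-long-chain 3-ketoacyl-CoA synthase activity and wax synthesis, the step that lengthens the fatty acids of the cuticle. X had 0.229 and 0.450 FPKM at stage 2, 9.38 and 9.01 at stage 3 and 2.199 and 1.91 at stage 4. L had 0.677 and 0.996 at stage 2, 3.33 and 1.71 at stage 3, and 7.24 and 6.29 at stage 4. The X peak came at stage 3 and was above both L3 libraries, with a log2 fold change of 1.57 for X3 against L3 (limma, adjusted p = 8.16e-05). X3 was also above the L4 level.

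NC11G0209840, an aspartic endopeptidase, was higher in X at every stage. Levels were low at stage 1, with 1.65 and 0.644 FPKM in X1, against 0.133 and 0.227 in L1. FPKM was 11.9 and 5.13 in X2, against 0.493 and 0.512 in L2, and 16.9 and 18.2 in X3, against 2.41 and 1.25 in L3. The log2 fold changes were 2.57 and 2.74 (limma, adjusted p = 5.09e-05 and 2.94e-05). In X4 it had 10.96 and 13.9, against 6.05 and 5.65 in L4, so that it was one of 2 members whose mean was higher in X at stage 4, beside NC2G0006120.

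**Figure D4:**
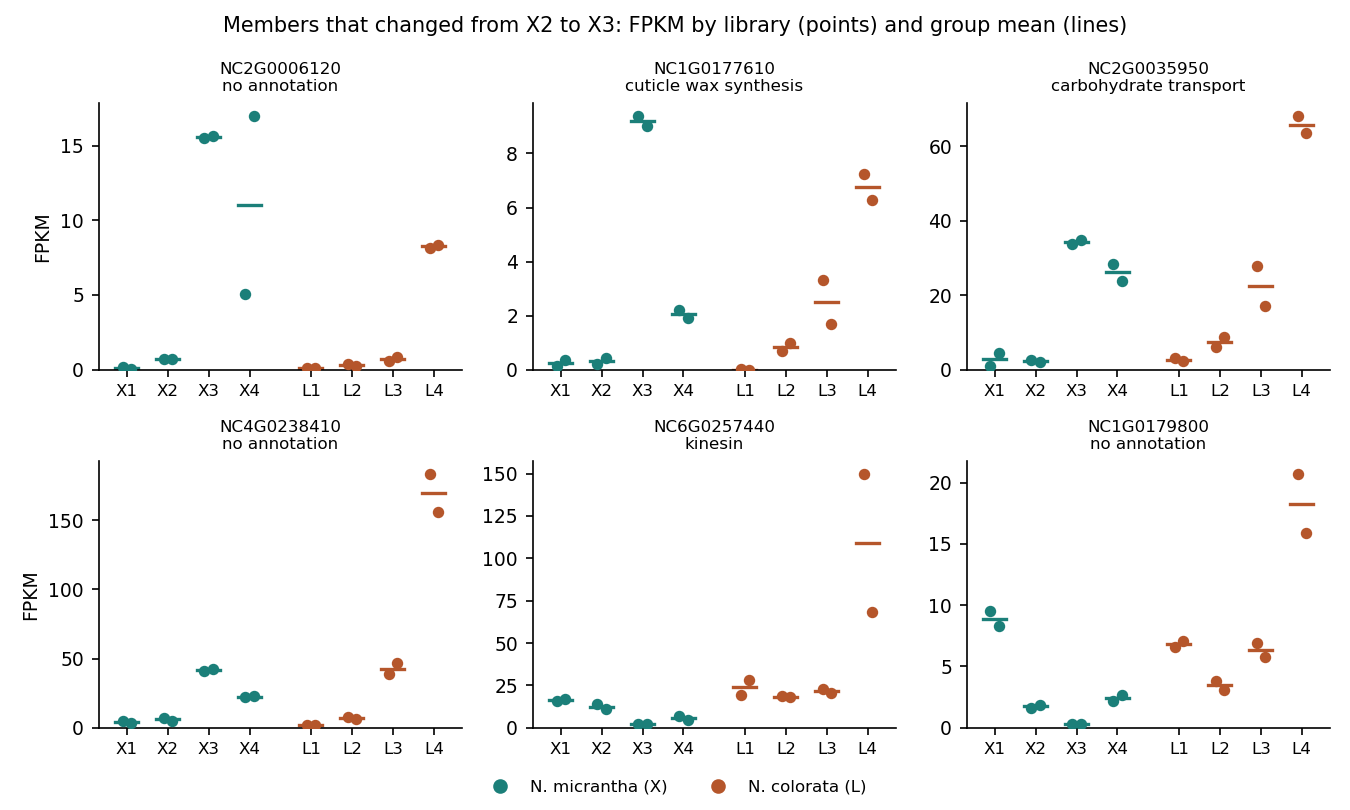
FPKM of 6 members that were called in X3 against X2, in every library, by group (X on the left of each panel, L on the right; lines, means of 2 libraries; each panel has its own axis from 0). NC2G0006120 and NC1G0177610 are higher in X3 than in L4, and NC6G0257440 and NC1G0179800 are lowest in X3.

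The 3 members that fell at X3 were NC6G0257440, NC10G0032730 and NC1G0179800. NC6G0257440 is annotated as a kinesin, a motor protein that moves along microtubules. It had 14.2 and 10.8 FPKM in X2 and 2.00 and 2.05 in X3, a log2 fold change of −2.15 (SE 0.31, limma, adjusted p = 0.000635), while L2 and L3 lay between 18.1 and 22.6. X4 had 6.82 and 4.37, and L4 was high but uneven, with 150 and 68.5. NC1G0179800, unannotated, had 1.61 and 1.89 in X2 and 0.268 and 0.318 in X3, against 6.93 and 5.79 in L3. At stage 4 it had 2.21 and 2.68 in X4, against 20.7 and 15.9 in L4. NC10G0032730, also unannotated, had 28.8 and 25.6 in X2 and 9.03 and 8.53 in X3.

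Whether the change from stage 2 to stage 3 differed between the species was tested as the X change minus the L change. It was more positive in X for 3 members and more negative for 4 (limma), beside 1.04% and 1.7% of all genes. The first were NC2G0006120, NC1G0177610 and the unannotated NC9G0272800. The second were NC6G0257440, NC1G0179800, NC10G0032730 and NC2G0004460, a gene with cell growth and cell wall organization terms. Of the 7, NC1G0179800 and NC1G0177610 stayed past the threshold under median-ratio scaling, a pseudocount of 0.1 and the loss of any 1 library.

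**Figure D5:**
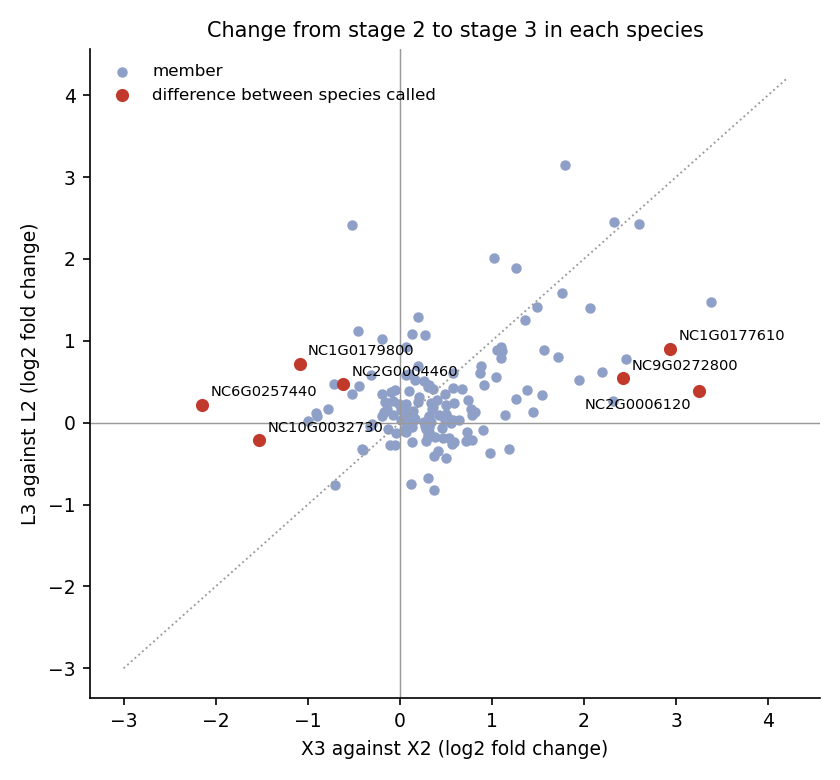
Log2 fold change from stage 2 to stage 3 of each of the 150 members in X (horizontal axis) and in L (vertical axis), with a dotted line of equal change. The 7 red points, 3 to the right of the line and 4 to its left, are members whose change differed between the species by limma.

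Early growth moved few members, though a larger share of them than of all genes. In X2 against X1, 3 rose (2%) and 5 fell (3.33%), beside 0.936% and 0.683% of all genes. After median-ratio scaling 4 rose and 4 fell. The falls included NC9G0111690, a kinase with terms for stomatal movement and the response to carbon dioxide, which had 0.799 and 0.743 FPKM in X2, against 4.38 and 7.61 in X1 (log2 fold change −1.94, limma, adjusted p = 0.00109). It stayed at 0.974 and 0.742 in X3 and was back at 5.07 and 5.06 in X4. NC10G0165840, unannotated, fell by 2.60 (limma, adjusted p = 0.000364), and NC1G0179800 and NC2G0035360 fell too. The 3 rises were NC11G0209840, NC13G0026400 and NC12G0184430, a gene with cell cycle terms. The falls numbered 17 without X1 replicate 1 and 8 without X2 replicate 2, the rises 0 without X1 replicate 2 and 6 without X2 replicate 2, and no member was called in either direction when only the 4 libraries compared were fitted.

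In L2 against L1, 5 members (3.33%) rose, beside 1.13% of all genes, and none fell, beside 0.76%. At an unadjusted p under 0.05, 5 fell, and 1 did by voom. NC1G0136330 and NC1G0110100 had the largest rises, 1.75 and 1.73 on the log2 scale (limma, adjusted p = 0.00558 and 0.0119), and NC7G0276960, NC4G0238410 and the root development gene NC9G0169400 followed. Without L1 replicate 2 or L2 replicate 2, 1 rise was called, and without L2 replicate 1, 3 were. From L2 to L3 the strongest rise was that of NC10G0144280, a monooxygenase by its terms, which had 35.1 and 21.7 FPKM in L3, against 2.32 and 2.15 in L2 (log2 fold change 3.14, limma, adjusted p = 0.000908). NC2G0033600 and the vacuolar ion transport gene NC1G0133500 rose there as well.

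Between the species at stage 2, 4 members were higher and 24 lower in X2 than in L2, beside 6.18% and 19.1% of all genes. The 4 became 10 with a pseudocount of 0.1, 7 by voom, 9 without X2 replicate 1 and 2 without L2 replicate 2. At stage 3, 10 were higher and 17 lower in X3 than in L3, beside 6.57% and 22.2%. Median-ratio scaling turned the stage 3 majority, with 15 higher and 10 lower, so the members had no firm direction there, whereas stage 2 then gave 5 higher and 17 lower. Of the other genes that met the 3 conditions, 5.12% were lower in X2 than in L2 and 8.04% lower in X3 than in L3. The members, at 16% and 11.3%, were thus under the share of all genes but over that of these genes, which share the stage 1 condition. NC2G0035360, unannotated, was lower at both stages, with 2.25 and 3.66 FPKM in X2, against 17.2 and 23.4 in L2 (log2 fold change −2.44, limma, adjusted p = 4.06e-06), and a log2 fold change of −2.60 in X3. NC1G0134930 and NC10G0165840 were also much lower in X2, and NC13G0026400 and NC5G0267730 were higher. NC2G0037300 was higher in X3 by 1.73 (limma, adjusted p = 0.000344), and NC1G0133500 lower, with a log2 fold change of −1.82 (limma, adjusted p = 0.0168).

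The other annotated members held a wide mix of roles. Iron was named for NC14G0010640 (iron-sulfur cluster assembly) and NC3G0201890 (iron and zinc homeostasis, cation transport). Kinase terms marked NC1G0103320 and NC7G0176710. Ion or solute transport marked NC1G0104520 (a chloride channel) and NC2G0294200 (an antiporter of foreign compounds). Leaf senescence marked NC11G0242030, with 12.1 and 8.64 FPKM in X4, against 17.3 and 22.8 in L4, and NC10G0165030, with 5.06 and 3.94 in X4, against 11.8 and 15.9 in L4. NC1G0102690, a carbonate dehydratase, had 1.21 and 1.14 in X4, against 14.1 and 8.28 in L4. NC3G0206030 is annotated as a quercetin glucosyltransferase and NC5G0160960 with secondary shoot formation.

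A further 16 fell in none of these groups. They were NC2G0037460 (alpha-mannosidase), NC8G0211860 (aminoacyl-tRNA editing), NC1G0133780 (ubiquitin ligase complex), NC1G0128790 (nuclear matrix), NC10G0163700 (pentose-phosphate shunt), NC3G0206950 (pollen development), NC12G0095010 (rRNA processing), NC8G0215880 (calcium signalling), NC4G0239770 (thiamine synthesis), NC9G0169400 (root development), NC1G0107250 (cell wall constituent), NC10G0044680 (anther dehiscence), NC2G0004460 (cell wall organization), NC6G0265530 (glucuronoxylan synthesis), NC8G0280410 (transcription termination) and NC1G0105650 (isomerase). Their mean FPKM in L4 was between 1.59 and 3.31 times that in L3, and their X4 mean between 0.137 and 0.673 of L4.

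Beyond the members, 14 functional lists were counted at the last step of leaf growth, with the members, which had been selected for their L4 level, included. A gene was on a list only through the exact terms set for it, so related terms did not count. Members left off in this way include NC2G0004460 (cell wall), NC12G0184430 (cell cycle), NC7G0176710 (kinase) and NC10G0165030 (leaf senescence). Of all tested genes, 8.72% were higher and 5.23% lower in X4 against X3, and 6.67% were higher and 9.49% lower in L4 against L3. Of 69 tested photosynthesis and chloroplast genes, 5 of them members, 2 rose and 15 fell in X4 against X3, with a median of −0.47. In L4 against L3, 12 rose and 0 fell (1 at an unadjusted p under 0.05, 0 by voom), with a median of 0.47. All 5 members were among the 12, and without them 7 of 64 rose and 0 fell, with a median of 0.38. Over all tested genes these medians were 0.19 and −0.02, and the opposite signs of the list stayed after median-ratio scaling, at −0.67 and 0.50. The X4 fall followed a rise a stage earlier. In X3 against X2 the list had 7 higher and 0 lower, with a median of 0.38, beside −0.07 over all tested genes. In L3 against L2 it had 1 in each direction, with a median of −0.09, beside −0.04. The wider set of 353 plastid genes had 18 higher and 59 lower in X4 against X3, and 58 higher and 24 lower in L4 against L3. Without its 19 members, 42 of 334 (12.6%) were higher and 24 (7.19%) lower in L4 against L3. This wider set was drawn up after the members had been seen, and all the lists come from genes called between these same species.

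Other lists moved less evenly. Leaf senescence had 2 members, NC9G0147780 and NC11G0242030, among 20 tested genes. That list had 1 higher and 1 lower in X4 against X3. In L4 against L3 it had 7 higher and 2 lower, or 5 and 2 without the members. Light and clock genes, with 4 members among 87, had 16 higher and 10 lower in X4 (13 in each direction after median-ratio scaling), and 15 higher and 8 lower in L4, or 12 and 8 without the members. Water and heat (95 genes, 1 member) had 8 higher and 5 lower in X4, and 12 higher and 11 lower in L4. Defence and wounding (130 genes, 1 member) had 20 higher and 12 lower in X4, and 19 in each direction in L4. Peroxide and glutathione (60, 1 member) had 18 higher and 13 lower in X4, and 9 higher and 12 lower in L4.

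In the next 5 lists more genes were lower than higher in L4 against L3, and each held 1 member or none by its exact terms. Phenylpropanoid and flavonoid genes (88, 1 member) had 13 higher and 25 lower in X4 against X3, and 5 higher and 31 lower in L4 against L3. Cell wall genes (79, no member) had 12 higher and 21 lower in X4, and 9 higher and 25 lower in L4. Cuticle and lipid transport (73, 1 member) had 21 higher and 14 lower in X4, and 12 higher and 18 lower in L4. Iron and nitrate (48, 1 member) had 10 higher and 9 lower in X4 (7 and 10 after median-ratio scaling), and 5 higher and 13 lower in L4. Hormone genes (212, no member) had 42 higher and 24 lower in X4, and 29 higher and 37 lower in L4 (32 and 35 after median-ratio scaling), with a median of −0.01.

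Cell division genes (56, no member) had 4 higher in X4, and 1 higher and 9 lower in L4; none was lower in X4, 0 at an unadjusted p under 0.05 and 0 by voom. Kinases (29, 1 member) had 4 higher in X4 and 3 in each direction in L4; none was lower in X4, with 2 at an unadjusted p under 0.05 and 0 by voom. Transcription factors (26, no member) had 3 in each direction in X4, and 3 higher and 4 lower in L4 (3 and 2 after median-ratio scaling).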

How the data were processed

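FPKM values, which the authors obtained with cufflinks beside gene counts from htseq-count, were deposited for 31475 genes and 16 libraries. The submitters' processing notes name fastp 0.20.0, HISAT2 2.1.0, Cufflinks 2.2.1 and HTSeq 0.7.2. Which genome or gene models the IDs belong to is not given in the sources used here, and whether X reads match those models as well as L reads do was not tested. Sample titles gave the groups, with 0 columns left unmapped.

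For 99.9994% of the values, FPKM gave back a whole number of reads (tolerance 0.01). FPKM was transformed to log2(FPKM + 1), so fold changes of low genes are understated. Genes with at least 1 FPKM in at least 2 libraries were tested with limma 3.58.1 in R 4.3.3, with 1 mean for each of 8 groups. A call needed at least a 2-fold change and an adjusted p under 0.05 (Benjamini-Hochberg, over all tested genes). In simulated X3 against X2 data, 99.5% of 200 changed genes among 17129 were recovered. Recovery of changes near 2-fold, at the replicate spread of the measured libraries, was not tested. Contrasts used by the selection (any with stage 4, and X1 against L1) are also fitted, and their counts of members are given as a description, not as a test. Comparisons share libraries.

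The members, the 14 lists and the tests were chosen with earlier results of these data known. Members were named by rule: the 10 highest scores, 3 genes on each side of the threshold, the 5 highest in L4, up to 4 per list, up to 4 called per comparison and direction, and every member in the study's annotation tables (1873 GO terms, 147 of them cut short, and 127 KEGG pathways). NC9G0272800 was named after its values were seen. Alternatives were pseudocount 0.1, median-ratio scaling, no filter, a filter in both species, the replicate number as a block, only the 4 libraries compared, voom on recovered reads, and leaving out each library. Python 3.11.15, numpy 2.4.6, pandas 2.3.3 and matplotlib 3.10.9 were used.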

Additional observations from a re-analysis of the deposited data

Results flagged for a closer look

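The change from stage 2 to stage 3 differed between X and L by limma for 7 members, given as the X change minus the L change on the log2 scale. It was larger in X for NC2G0006120, by 2.86 (SE 0.498, adjusted p = 0.0129), for NC1G0177610, by 2.03 (adjusted p = 0.00593), and for NC9G0272800, by 1.88 (adjusted p = 0.0215). It was smaller in X for NC6G0257440, at −2.37 (adjusted p = 0.0163), NC1G0179800, at −1.81 (adjusted p = 0.00448), NC10G0032730, at −1.31 (adjusted p = 0.0156), and NC2G0004460, at −1.09 (adjusted p = 0.0407). Only NC1G0179800 and NC1G0177610 stayed past the threshold under median-ratio scaling, pseudocount 0.1 and the loss of any library, alternatives that were chosen after seeing the data. NC2G0004460 lost its call under 13 of them, median-ratio scaling included (adjusted p = 0.0505).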

How the results depend on the processing

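Counts of called members moved by over 1.5 times under these alternatives. When only the 4 libraries compared were fitted, X3 against X2 gave 11 higher. X2 against X1 and L2 against L1 gave 0 higher, with 0 lower in X2 against X1, where 3, 5 and 5 had been called. Such a fit has fewer degrees of freedom and takes its spread from the compared groups alone. Pseudocount 0.1 gave 10 higher in X2 against L2 and 1 lower in L2 against L1, and voom gave 7 and 1, and 3 lower in X2 against X1. Median-ratio scaling gave 10 lower in X3 against L3. The cause of these moves was not tested for any of the settings. Leaving out each library gave 1 to 7 higher in L2 against L1, 11 to 18 higher in L3 against L2, 0 to 6 higher and 3 to 17 lower in X2 against X1, 21 to 30 higher and 3 to 6 lower in X3 against X2, 2 to 9 higher and 18 to 27 lower in X2 against L2, and 8 to 12 higher and 14 to 21 lower in X3 against L3. The extremes of X2 against X1 came without X1 replicate 2 (0 higher), X2 replicate 2 (6 higher) and X1 replicate 1 (17 lower), those of X2 against L2 without X2 replicate 1 (9) and L2 replicate 2 (2), and the 6 lower in X3 against X2 without X2 replicate 2. The replicate numbers gave no steady pairing, as correlations of same-numbered deviations ran from −0.492 to 0.209. With 2 libraries a group, a negative value equals a positive one between unlike-numbered libraries. Sharing that does not follow the numbers was not tested, and the block cannot remove it. With the replicate block X3 against X2 gave 30 higher and 3 lower, and X2 against X1 gave 2 higher. For the 84 pairs of a named gene and a comparison, 1794 of 1932 values under the alternatives kept the call, 138 lost it and 0 reversed. The rule itself kept 127 of the members with pseudocount 0.1, 112 after median-ratio scaling, and 110 (without X4 replicate 1) to 146 (without L2 replicate 1) when a library was left out. Each group had 2 libraries, and every X library had fewer reads than any L library; the effect of depth on the calls was not tested.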
